A study of Mus musculus with 21 samples.

Results

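The wild-type (WT) newborn brain was compared with the liver and the skin of the same mice by RNA sequencing, and the genes higher or lower in brain than in both other tissues were described. The members are the 15 libraries titled Brain WT, Liver WT and Skin WT, numbered 1 to 5 in each tissue, out of 21 libraries in the series. The number was taken as the mouse. All were labelled as from C57BL/6 mice at P0, and the study's methods name C57BL/6J. P0 is the day of birth. The 6 remaining libraries, from 2 mice heterozygous for a Jak1 knock-in (KI) allele, entered no call. The labels name the tissue as brain, liver or skin and give no brain region, sex or litter.

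The brain at birth is mostly young neurons that are growing axons and forming the first synapses, together with radial glia, the stem cells of the developing brain, and precursors of astrocytes and oligodendrocytes. Myelination has barely begun. The newborn liver makes plasma proteins and still houses blood formation, and newborn skin holds keratinocytes, fibroblasts, vessels and the thin muscle layer beneath it. In RNA from whole tissue, a gene can be lower because fewer cells of a type are present or because each cell holds less of its RNA, and these cannot be told apart.

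Each library had between 26549326 and 38388133 reads counted on genes, with the lowest total in the brain of mouse 5. Of 24391 gene rows, 17071 passed the filter on low counts and were tested. Levels are given as normalised CPM, counts scaled to a common library size with the trimmed mean of M values (TMM), so they compare 1 gene between tissues and not different genes with each other. In the liver the 10 most abundant genes held 26.5% to 29.9% of the counts, against 2.68% to 3.70% in brain and 9.37% to 13.9% in skin. The study's methods give a lower RNA integrity for skin than for liver and state none for brain. The mouse numbers could be checked once across tissues: the 3 libraries of mouse 3 held 0 or 1 counts of Xist, the RNA of the inactive X chromosome, and 1324 to 1509 of the Y-linked Eif2s3y, whereas the 12 libraries of the other mice held 11467 to 32913 and at most 1.

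Genes that mark regions of the brain differed widely between the 5 brain libraries. Tbr1, a factor of cortical projection neurons, had 392, 45, 21, 501 and 1903 counts in the brains of mice 1 to 5. Dlx1, a factor of forebrain inhibitory neurons, had 1481, 197, 41, 1413 and 1933, and the hypothalamic hormone gene Avp had 680, 4, 1, 586 and 1650. These genes were low in the same 2 libraries. Genes of the hindbrain and spinal cord ran differently. Hoxb3 had 1611, 204, 1400, 657 and 72 counts, and the glycine transporter gene Slc6a5 had 817, 287, 622, 309 and 1. Both were lowest in the brain of mouse 5, which was highest for Tbr1. Otx2, a factor of the forebrain and midbrain, and En2, a factor of the midbrain and cerebellum, had at least 579 counts in every brain. In the KI brains, used here for nothing else than a check, Tbr1 had 600 and 633 counts.

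**Figure D1:**
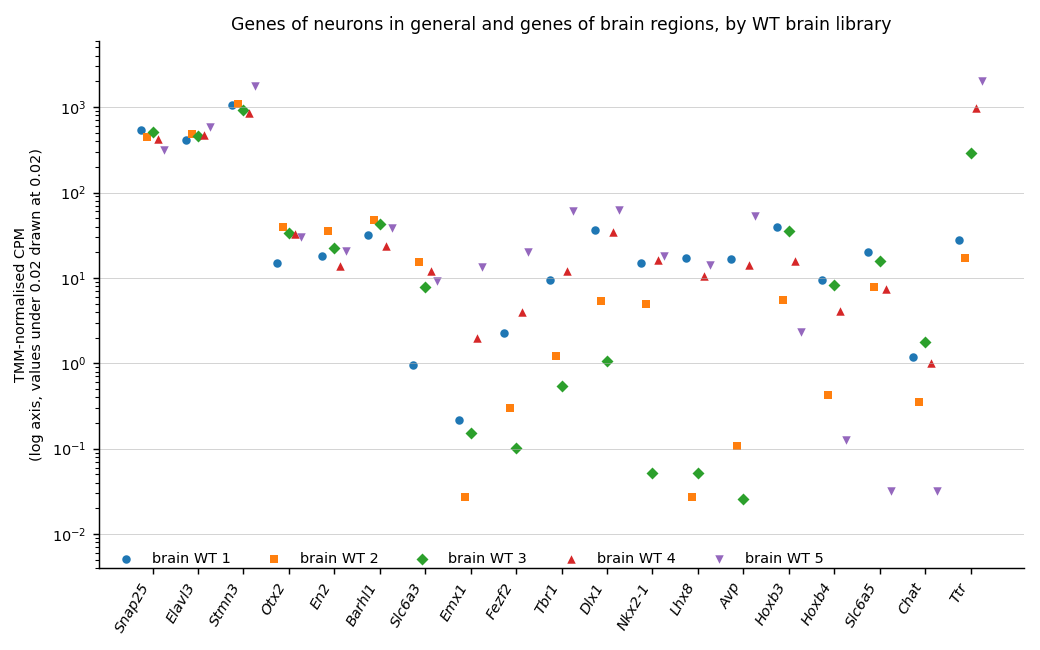
Normalised CPM (log axis) of 19 genes in the 5 WT brain libraries, one marker per library. The 3 general neuronal genes at the left lie close together, whereas Tbr1, Dlx1 and Avp fall in the brains of mice 2 and 3 and Hoxb4, Slc6a5 and Chat fall in the brain of mouse 5.

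Over all genes, 63 gene rows had at least 100 counts in one brain and at most 3 in another, with 39 of them at or under 3 in the brain of mouse 5, 20 in mouse 2, 14 in mouse 3, 7 in mouse 1 and 2 in mouse 4. The same rule found 11 rows in liver and 164 in skin. The brain of mouse 5 also stood apart in a second way. Its correlation with the other brains over genes was 0.946 to 0.954, against up to 0.986 among the others, and its level moved with transcript length. For genes whose longest transcript is under 1 kb, its median log2 level was 0.61 above that of the other brains, and for those over 8 kb it was -0.67. Of the 3323 genes called higher with a mean of at least 1 CPM in brain, 1645 (49.5%) had their lowest brain value in this library. It also held the highest brain value for 951 of them (28.6%), against 14.1% to 20.4% in the other brains. The part of these differences in the results below was not tested. Counts of calls are also given without this brain, and without the brains of mice 2 and 3.

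Of the 17071 genes tested, 3476 (20.4%) were higher in brain than in both liver and skin and 3146 (18.4%) were lower than in both, by edgeR's quasi-likelihood test with an adjusted p under 0.05 and at least a 2-fold change in each contrast. Both contrasts use the same brain libraries, so they are not independent. Against liver alone, 5426 genes (31.8%) were higher in brain and 4924 (28.8%) lower, and against skin alone 4238 (24.8%) were higher and 4727 (27.7%) lower. By adjusted p without a fold minimum, 80.4% of genes differed from liver and 74.8% from skin. All 5 brain libraries lay above the 10 others for 4275 genes (25.0%) and below them for 3540 (20.7%). Among the calls this held for 3206 genes called higher (18.8% of all tested) and 2686 called lower (15.7%). Without the brain of mouse 5 the counts were 3581 higher and 3157 lower, and without the brains of mice 2 and 3 they were 3436 and 3061.

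The share of counts in the called genes was taken in the same libraries that made the calls, so its direction follows from the calls. The genes called higher took 40.6% ± 1.18 (SD, n = 5) of brain counts, 2.71% ± 0.106 of liver counts and 6.32% ± 0.452 of skin counts. The genes called lower took 3.53% ± 0.199 of brain counts, 40.2% ± 0.669 of liver counts and 31.7% ± 1.42 of skin counts. The differences reached further upward than downward, but the rule does not treat the directions alike. A gene of brain alone can rank high, whereas a gene of liver alone or of skin alone cannot. By the smaller of its ratios to liver and skin, 1047 of the higher genes were at least 16-fold above both tissues and 135 at least 256-fold, whereas 341 of the lower genes were at least 16-fold below and 12 at least 256-fold. A mean under 3 counts per library was set to 3 counts in these ratios. The mean in liver and in skin was at or under that floor for 371 of the higher genes, and the mean in brain for 426 of the lower genes. Over all tested genes the median fitted log2 change was 0.06 against liver and -0.03 against skin. TMM scaling itself brings such a median near 0, so it is no check of the scale. When libraries were scaled to their totals alone, the median against liver was 0.84.

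**Figure D2:**
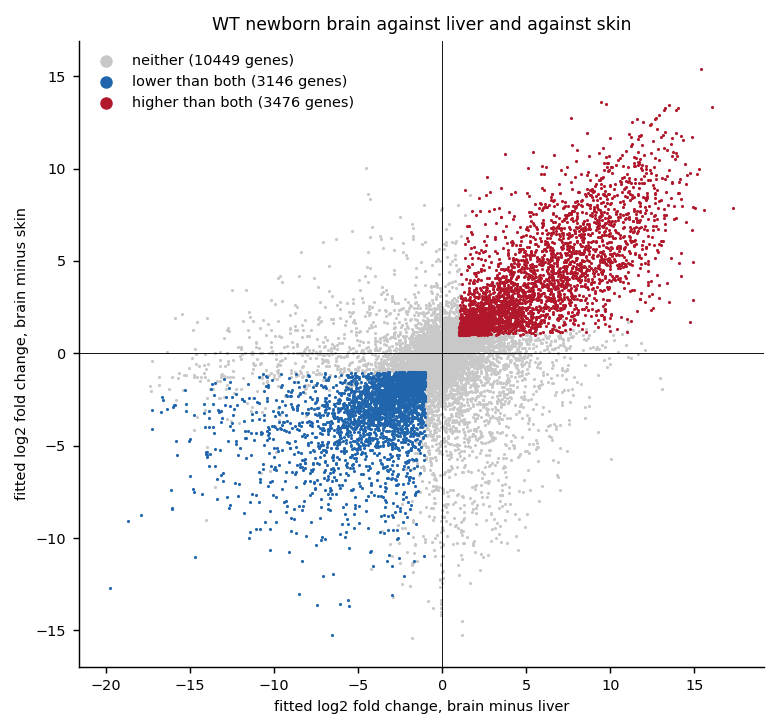
Fitted log2 fold change of each of the 17071 tested genes, brain minus liver on the x axis and brain minus skin on the y axis, coloured by call. The 3476 genes called higher reach above 10 on both axes.

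The leading genes higher in brain were ranked by the smaller ratio among those with no overlap between tissues, and 12 of the first 15 are described: Tmem130, Stmn3, Slc17a6, Ptpn5, Grm5, Myt1l, Elavl3, Cdk5r2, Ttc9b, Sst, Glra2 and Vstm2l. Most of them are genes of neurons. Tmem130, which encodes a membrane protein of little known function at chr5:145496784-145522518 in mm9, had 582, 698, 678, 732 and 630 CPM in the 5 brains. Its 10 liver and skin libraries held between 0 and 15 counts each, 38 in all. The brains lay within a narrow range and far above every other library, with a log2 difference of 12.34 ± 0.57 (SE) from liver (edgeR adjusted p = 1.93e-09) and 12.37 ± 0.56 from skin (adjusted p = 3.87e-09).

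Slc17a6, the vesicular glutamate transporter of subcortical neurons, had 241, 313, 325, 245 and 188 CPM in brain, no count in any liver library and 4 counts over the 5 skin libraries. Against the liver, where every library was at 0, brain was at least 2070-fold higher with 3 counts per library as the floor. Glra2, a glycine receptor subunit of the immature brain, had 176, 193, 161, 163 and 117 CPM in brain and 0 counts in all 10 other libraries, so that brain was at least 1275-fold higher than liver and at least 1946-fold higher than skin. In both genes the brain of mouse 5 was the lowest.

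Stmn3, a regulator of microtubules in neurons, went the other way in that library, with 1055, 1078, 938, 865 and 1762 CPM. Elavl3, an RNA-binding protein used widely as a neuronal marker, had 414, 491, 459, 472 and 581 CPM in brain and 69 counts over the 10 others. Ptpn5, a striatum-enriched phosphatase, had 219, 251, 236, 270 and 228 CPM in brain and 24 counts elsewhere, and its brain values did not fall in the 2 libraries with little Tbr1. Grm5, a glutamate receptor gene, had 4 counts over the 10 liver and skin libraries. Myt1l, Cdk5r2, Ttc9b, Sst and Vstm2l had between 10 and 29 counts there.

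**Figure D3:**
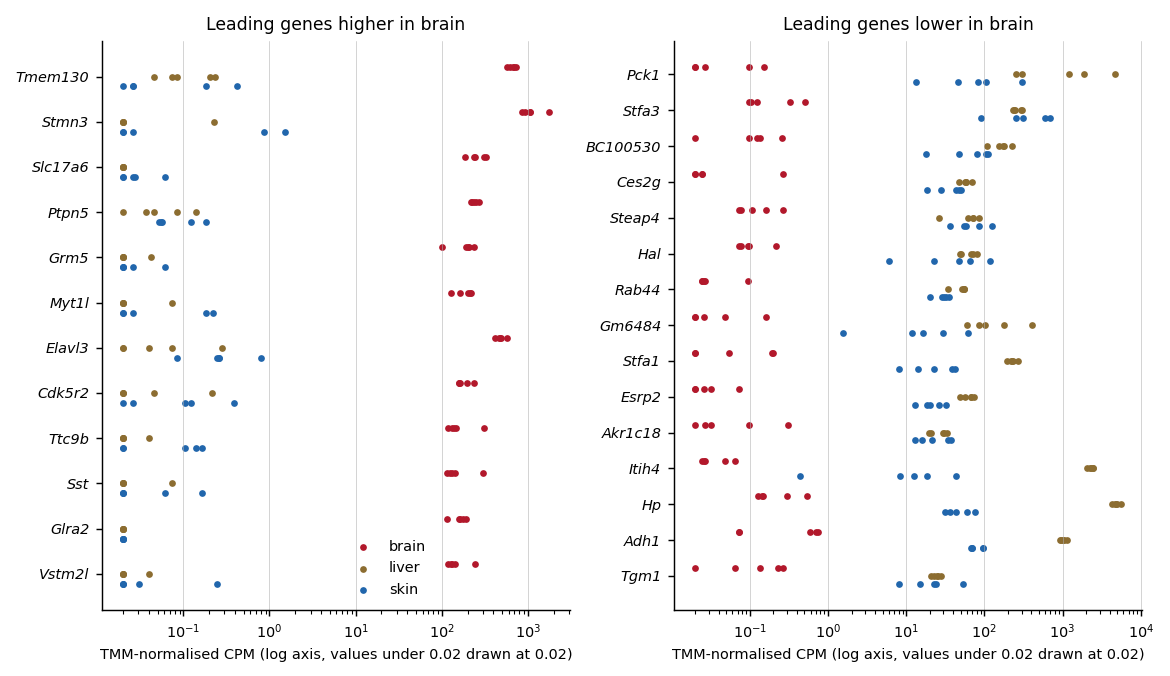
Normalised CPM (log axis, values under 0.02 drawn at 0.02) of 12 leading genes higher in brain (left) and the 15 leading genes lower in brain (right), one point per library. In the left panel the lowest brain point is 102 CPM (Grm5) and the highest other point 1.52 CPM (Stmn3), and in the right panel every brain point is under 1 CPM.

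Over all genes tested 20.4% were higher and 18.4% lower, and the list counts below stand beside these shares. Genes of the neuronal cytoskeleton and of neuronal identity were all higher in brain: 26 of 26 tested, with a median log2 ratio of 9.99 to liver and 6.73 to skin. Tubb3, the tubulin of neurons, had 1691, 2012, 1814, 2026 and 2846 CPM in brain, a mean of 0.418 ± 0.293 in liver and 3.35 ± 1.57 in skin. Gap43, a protein of growing axon tips, had 1616 ± 183 CPM in brain, 0.966 ± 0.629 in liver and 54.7 ± 13.3 in skin. The smallest ratios of the list were to skin, for Ncam1, an adhesion molecule (633 ± 133 CPM in brain and 126 ± 31.8 in skin), and Dpysl3, a protein of axon growth (2027 ± 231 and 189 ± 47.2). The list as a whole summed to between 21889 and 25589 CPM in the 5 brains, at most 94.6 in liver and at most 720 in skin.

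The release machinery of synaptic vesicles showed the same picture, with 22 of 22 genes higher and median log2 ratios of 7.87 to liver and 5.78 to skin. Snap25, a fusion protein of the vesicle, had 544, 442, 505, 422 and 318 CPM in brain, 1 count over the 5 liver libraries and at most 1.27 CPM in skin. Syn1, which tethers vesicles, had 188 ± 18.3 CPM in brain, 0.320 ± 0.135 in liver and 0.805 ± 0.370 in skin. Bsn, a scaffold of the release site, had the smallest ratio to liver, with 105 ± 28.6 CPM in brain, 16.8 ± 2.31 in liver and 1.83 ± 0.562 in skin. Vamp2, Cplx2 and Bsn had ratios between 5.48 and 6.27 to their nearer tissue, against 914 for Snap25.

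At the synaptic contact, 19 of 22 genes for postsynaptic scaffolds and synaptic adhesion were higher, with median log2 ratios of 6.13 and 4.42. The presynaptic adhesion genes Nrxn2 and Nrxn3 had 496 ± 56.3 and 124 ± 25.5 CPM in brain and under 10 CPM on average in both other tissues. Shank2, Shank3 and Camk2a were not called. Shank2 had 40.9 ± 20.5 CPM in brain and 24.9 ± 9.24 in liver, Shank3 had 79.3 ± 24.7 in brain and 60 ± 13.6 in skin, and Camk2a, a kinase that rises as synapses mature, had 55.3 ± 9.98 in brain and 29.2 ± 8.96 in skin. Shank2 and Camk2a were called higher without mouse 5 and when libraries were scaled to their totals alone. Camk2a was also called without mouse 3, with the size factors of DESeq2 and by the DESeq2 test. Shank2 was also called without the brain of mouse 5 alone.

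Of 29 listed genes for receptors of glutamate, GABA and glycine, 25 were tested and all 25 were higher, with median log2 ratios of 8.84 to liver and 5.92 to skin. Gria2, the AMPA receptor subunit that sets calcium permeability, had 297, 276, 344, 322 and 166 CPM in brain and 0.921 ± 1.28 in skin. Grin1, the obligatory NMDA receptor subunit, had 86.6 ± 9.87 CPM in brain and no count in liver. Grin2b, its partner subunit before birth, had 13.2, 15.7, 15.1, 13.3 and 3.71 CPM, with the brain of mouse 5 far below the others. Grin2a, the subunit that rises after birth, had 1.10 ± 0.482 CPM in brain. The smallest ratios were those of Grik5 and Gria3, at 4.69 and 3.30 to skin. Gabrg3, Gabrd, Glra1 and Glra3 were removed by the filter on low counts, and without mouse 5 Gabrg3, Glra1 and Glra3 were tested and called higher.

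For the making and moving of transmitters, 15 of 19 tested genes were higher and 1 was lower, with median log2 ratios of 5.92 and 4.89. Gad1, which makes GABA, had 190, 180, 184, 190 and 215 CPM in brain and under 1 CPM in every other library, and Slc32a1, the vesicular GABA transporter, had 109 ± 14.3 CPM. Slc17a7, the glutamate transporter of cortical neurons, had 3.12, 3.69, 3.92, 6.29 and 12 CPM, with the brain of mouse 5 the highest. Hdc, which makes histamine in mast cells as well as neurons, was lower in brain: 3.40 ± 1.63 CPM against 29.2 ± 5.99 in liver and 359 ± 111 in skin. Slc17a8, Ddc and Slc6a4 were not called, and Slc6a5 and Chat were removed by the filter. Slc6a3, the dopamine transporter, was called with 0.951, 15.3, 7.92, 12.1 and 9.14 CPM in brain, but no longer without the brains of mice 2 and 3.

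Among 20 voltage-gated channel genes of neurons, 18 were higher (median log2 ratios 6.60 and 4.71), and Kcna1 was among those not called. Scn2a1, the main sodium channel of young axons, had 147 ± 35.7 CPM in brain, and Scn1a, which rises later, had 36.1 ± 16.1. Neuropeptide genes were higher in 14 of 16 tested, with median log2 ratios of 5.98 to liver and 4.98 to skin. Sst, the somatostatin gene, had 165 ± 79.6 CPM, Pdyn 21.1 ± 1.29 and Adcyap1 22.2 ± 2.24. Penk, the proenkephalin gene, was not called because it was higher in skin: 74.3, 52.5, 62.4, 45 and 46.6 CPM in brain against 288, 309, 266, 305 and 445 in skin, with no overlap. Avp, Oxt, Hcrt and Pmch, all of the hypothalamus, were removed by the filter and called higher without the brains of mice 2 and 3, which left the libraries that held them, and Hcrt and Pmch also without mouse 3 alone.

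Of 22 forebrain factors, 18 were tested and 9 were higher, and of 18 midbrain and hindbrain factors, 17 were tested and 9 were higher. The median log2 ratios were 6.29 to liver and 3.43 to skin for the first and 4.42 to liver and 2.35 to skin for the second. Neurod2 and Neurod6, factors of cortical excitatory neurons, had no overlap with the other tissues but SDs close to their means in brain (45.3 ± 43.2 and 49.1 ± 48.1 CPM). Barhl1, Otx2, Lhx5 and En2 varied less, at 36.8 ± 9.57, 30.0 ± 9.13, 25.0 ± 4.18 and 22.1 ± 8.16 CPM, and each was under 0.1 CPM on average in liver and skin. Emx1, Fezf2 and Nkx2-1 were not tested, because too few brains held them. With no filter beyond 1 count, 13 of the 22 forebrain factors were higher, those 3 among them. Without the brains of mice 2 and 3, 21 were tested and 16 were higher. Those brains were left out for their low level of these genes, so the rise in the count follows from the choice. Emx2, Bcl11b and Lhx2 were not called and were close to or above the brain in skin (9.08 ± 1.51, 63.8 ± 11.5 and 67.7 ± 42.4 CPM in skin, against 8.62 ± 3.85, 49.9 ± 13.2 and 37.4 ± 25.3 in brain).

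The homeobox genes Hoxa2, Hoxb2, Hoxa3, Hoxb3 and Hoxb4, which pattern the hindbrain and the body below it, were tested and not called. Hoxb3 had 19.8 ± 17.1 CPM in brain and 21.7 ± 5.22 in skin. Of the tested regulators of neurogenesis, 18 of 21 were higher, with median log2 ratios of 7.02 to liver and 4.61 to skin. Myt1l, a repressor of non-neuronal genes, had 186 ± 38.6 CPM in brain, and Pax6, a factor of radial glia, had 33.1 ± 14.8. Of the Notch pathway genes in this list, Hes5 and Dll3 were higher, whereas Hes6, Dll1 and Notch1 were not called. Hes6 was called higher when libraries were scaled to their totals alone. Notch1 was higher in skin (143 ± 17.8 CPM) than in brain (38.0 ± 5.25). Of 26 axon guidance genes 14 were higher (median log2 ratios 3.76 to liver and 1.55 to skin), and Ntn1, Slit3 and Sema3c had more CPM in skin (206 ± 38.7, 87.6 ± 22.1 and 137 ± 34.9) than in brain (73.3 ± 13.7, 3.84 ± 1.36 and 45.6 ± 2.65). Cntn2 and Dcc, receptors of outgrowing axons, were higher, at 92.9 ± 27.2 and 64.9 ± 11.1 CPM in brain.

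Neurons use their own splicing proteins and their own chromatin remodelling subunits. The list of this switch held 5 higher and 3 lower genes of 12. Its median log2 ratios were -0.20 to liver and 0.89 to skin. Over all genes tested 20.4% were higher and 18.4% lower, so the lower count was near the share over all genes. All 14 neural RNA-processing genes were higher (median log2 ratios 7.75 and 4.2). Ptbp2, the neuronal member of the polypyrimidine tract binding proteins, had 263, 236, 264, 239 and 189 CPM in brain, 23.0 ± 2.04 in liver and 38.9 ± 10.6 in skin. Ptbp1, its counterpart in other cells, had 28.4, 32.0, 28.0, 33.1 and 41.0 CPM in brain, 208 ± 10.3 in liver and 259 ± 28.6 in skin. Brain was the highest of the 3 tissues for Ptbp2 and the lowest for Ptbp1, with log2 differences of 3.38 ± 0.17 and 2.64 ± 0.16 for Ptbp2 and -2.69 ± 0.12 and -3.0 ± 0.12 for Ptbp1 (edgeR adjusted p at most 3.83e-08). Actl6b, a subunit of the neuronal remodelling complex, had 102, 120, 112, 123 and 172 CPM in brain and at most 0.193 elsewhere. Actl6a, which it replaces, had 20.6 ± 3.39 CPM in brain, 58.9 ± 3.34 in liver and 47.4 ± 4.88 in skin, and its call was lost when libraries were scaled to their totals alone. Dpf1 and Ss18l1, further neuronal subunits, were higher at 91.1 ± 17.7 and 122 ± 7.66 CPM, while Dpf3, Phf10 and Ss18 were not called.

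Rest, the repressor that keeps neuronal genes silent in other cells, was lower in brain, with 3.29, 5.14, 6.13, 4.68 and 0.0959 CPM against 19.4 ± 4.36 in liver and 14 ± 2.59 in skin. The brains did not overlap with the others. The log2 difference was -2.49 ± 0.58 from liver (edgeR adjusted p = 0.00178) and -1.98 ± 0.56 from skin (adjusted p = 0.00718). The brain of mouse 5 held 3 counts of Rest, against 135 to 239 in the other brains. REST binds a 21-base motif named repressor element 1 (RE1), and the RefSeq promoter windows of 300 bases on GRCm38.p6, from 250 bases before a gene start to 50 after it, were searched for it on both strands. Of its 17 fixed letters up to 3 could differ. A match was found in 28 of 3372 windows of higher genes (0.830%), 2 of 2885 of lower genes (0.0693%) and 64 of 16064 of all tested genes (0.398%). With at most 2 differences, 14 windows of higher genes (0.415%) and 0 of lower genes matched, of 17 in all (0.106%). Windows were held for 73.8% of the higher and 73.6% of the lower genes, too few to compare the sets, so these shares describe the windows held and no more. A match of letters is not a bound site.

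The bases before the start of 4 higher genes are shown because each holds such a match, marked in capitals. They are Syn1 (chrX:20920919-20921168, minus strand), Gria2 (chr3:80802836-80803085, minus strand), Scamp5, a synaptic vesicle protein (chr9:57468061-57468310, minus strand), and Celsr3, a cadherin of axon tracts (chr9:108825795-108826044, plus strand), each 250 bases long and read 5′ to 3′ along the gene.
Syn1: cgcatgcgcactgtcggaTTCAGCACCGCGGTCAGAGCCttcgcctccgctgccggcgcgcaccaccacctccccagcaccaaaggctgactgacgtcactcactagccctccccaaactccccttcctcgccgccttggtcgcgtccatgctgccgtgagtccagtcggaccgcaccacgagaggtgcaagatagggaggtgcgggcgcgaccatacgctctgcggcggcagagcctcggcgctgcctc
Gria2: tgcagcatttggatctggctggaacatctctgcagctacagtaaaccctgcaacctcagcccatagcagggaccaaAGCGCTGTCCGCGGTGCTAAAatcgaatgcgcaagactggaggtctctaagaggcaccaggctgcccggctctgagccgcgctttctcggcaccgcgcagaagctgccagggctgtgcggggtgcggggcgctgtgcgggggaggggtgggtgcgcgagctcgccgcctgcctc
Scamp5: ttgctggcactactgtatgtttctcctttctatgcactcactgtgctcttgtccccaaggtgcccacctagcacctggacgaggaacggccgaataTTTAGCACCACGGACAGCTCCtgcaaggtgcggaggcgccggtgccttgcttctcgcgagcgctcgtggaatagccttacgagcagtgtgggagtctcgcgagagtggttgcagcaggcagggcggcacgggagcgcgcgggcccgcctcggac
Celsr3: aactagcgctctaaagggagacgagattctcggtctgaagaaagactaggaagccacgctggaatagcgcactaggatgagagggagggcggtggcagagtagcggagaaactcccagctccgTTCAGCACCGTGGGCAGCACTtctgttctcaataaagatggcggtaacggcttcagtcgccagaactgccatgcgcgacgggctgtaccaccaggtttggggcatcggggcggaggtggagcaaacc

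The match in Syn1 has 0 differences from the fixed letters and those in the other 3 have 2. In Gria2 the motif lies on the opposite strand. Scamp5 had 276, 327, 304, 313 and 274 CPM in brain, 34.9 ± 1.27 in liver and 23.7 ± 1.87 in skin. Celsr3 had 81.8, 91.7, 107, 121 and 84.1 CPM in brain, 2.58 ± 1.09 in liver and 0.672 ± 0.0962 in skin. Both were well above the other tissues in each brain, and Scamp5 kept a sizeable level outside the brain that Syn1 and Gria2 did not. The matches of 5 further higher genes are shown alone, in capitals throughout, and the first 2 have 0 and 1 differences and the others 2. All but that of Dner lie on the strand opposite to the gene, so their capitals read as the reverse complement of the motif. They lie at chr17:28575641-28575661, chr11:3774791-3774811, chr2:180104574-180104594, chr1:84696351-84696371 and chr9:89909588-89909608.
Lhfpl5: GGCGCTGGCCGCGGTGCTGAA
Osbp2: GCCGCTGTCCGCGGTGCTGAA
Hrh3: GGCGCTGTCCGTGGTGCTGCC
Dner: TTCAGCACCAAGGACAAGGGC
Rasgrf1: GTCCCTGTCCGCGCTGCTGAA

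Lhfpl5 had 11.5 ± 1.01 CPM in brain, Osbp2 48.6 ± 3.62, the histamine receptor gene Hrh3 8.21 ± 2.97, the Notch ligand gene Dner 447 ± 37.5 and the exchange factor gene Rasgrf1 25.1 ± 7.90. Each was under 1.5 CPM on average in both other tissues. Lhx3, a factor of motor neurons and the pituitary, held a match with 0 differences in its window and was not called. The letters TATAAA between 45 and 15 bases before the start were found in 1.25% of windows of higher genes, 2.98% of lower genes and 1.81% of all. The median observed-to-expected CpG ratio was 0.652, 0.509 and 0.697.

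In the mm9 gene models, matched for 90.6% of tested genes, the median span from start to end was 26347 bases for higher genes, 21280 for lower genes and 22391 for all tested. Spans over 100 kb made up 22.8% of higher genes, 9.75% of lower genes and 13.6% of all. Of the 460 tested genes spanning more than 300 kb, 54.8% were higher and 6.52% lower, against the 20.4% and 18.4% over all genes. Adhesion molecules and receptors of synapses such as Nrxn3 and Dcc are among the long genes. The median longest transcript was 3242 bases for higher genes and 3001 for all. Higher genes also lay on the X chromosome more often, 5.78% of those placed, than all tested genes (3.61%) or lower genes (2.81%). These shares have no test, since genes are not replicates.

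**Figure D4:**
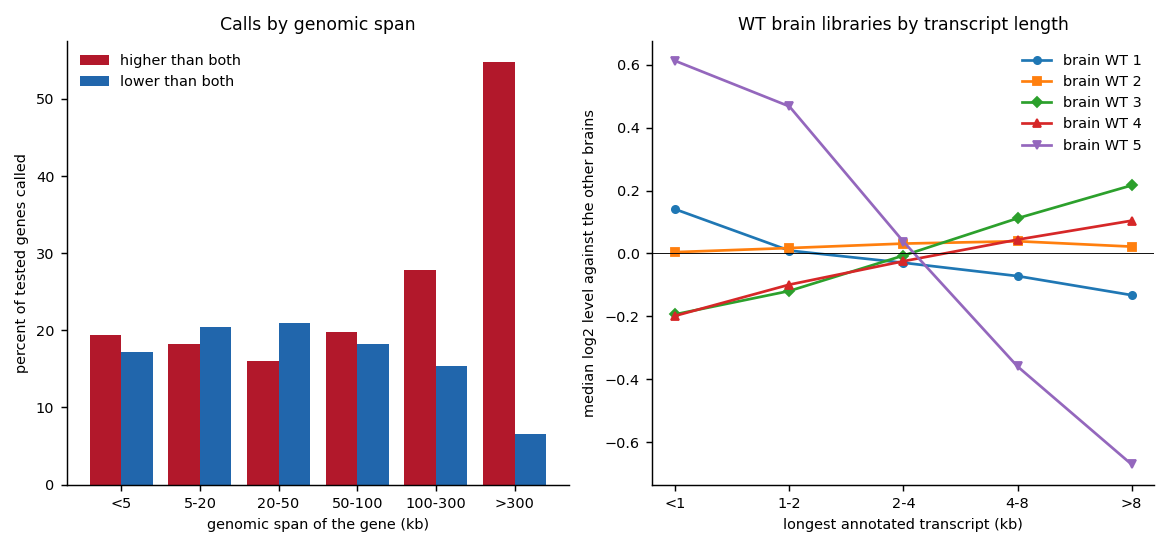
Left, percent of tested genes called higher (red) or lower (blue) in brain by genomic span in kb, which rises to 54.8% higher among the 460 genes over 300 kb. Right, median log2 level of each WT brain library against the other brains by length of the longest transcript in kb, where the brain of mouse 5 goes from 0.61 under 1 kb to -0.67 over 8 kb.

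Of 20 radial glia and astrocyte genes, 11 were higher, with median log2 ratios of 5.00 to liver and 3.23 to skin. Fabp7, a lipid-binding protein of radial glia, had 3356, 2532, 2310, 1944 and 1971 CPM in brain, 1.14 ± 0.491 in liver and 4.07 ± 1.82 in skin. Ncan and Bcan, proteoglycans of the brain matrix, had 479 ± 46.9 and 146 ± 15.3 CPM in brain and under 1 elsewhere. Gfap, the filament protein of mature astrocytes, had 38.9 ± 6.93 CPM in brain, 14.3 ± 2.36 in liver and 0.333 CPM on average in skin. Vim, Gja1 and Aldh1l1 were not called, and Vim was more abundant in skin (2631 ± 465 CPM) than in brain (274 ± 83.0). Of 16 tested oligodendrocyte lineage genes, 9 were higher, with median log2 ratios of 3.75 to liver and 2.00 to skin. Olig2, which specifies the lineage, had 40.0, 44.4, 37.0, 36.5 and 27.7 CPM in brain and a single count over the 10 other libraries. Myelin genes did not all follow: Mog was higher at 5.64 ± 0.714 CPM, whereas Mbp (84.2 ± 31.8 in brain, 42.3 ± 2.23 in liver) was not called. Mbp was called higher without mouse 2, without mouse 5 and without the brain of mouse 5 alone. The same held for Mbp under library totals, with the size factors of DESeq2 and by the DESeq2 test.

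Motile cilia genes of the ependyma were higher in 9 of 10 and lower in 1, Dnaic1, with median log2 ratios of 4.34 to liver and 4.74 to skin. The lower call of Dnaic1 was lost under library totals. Foxj1, their master factor, had 25.5 ± 7.66 CPM in brain, 1.25 ± 0.571 in liver and 0.300 ± 0.243 in skin, and Spag6 had 11.8 ± 1.21. Choroid plexus genes differed between the brains, with median log2 ratios of 1.29 to liver and 1.53 to skin. Ttr, a carrier of thyroid hormone made by choroid plexus and liver, had 27.4, 17.2, 293, 980 and 2043 CPM in brain, 7075 ± 219 in liver and 1.53 ± 1.83 in skin. Folr1, a folate receptor, had 0.878, 1.91, 2.41, 9.18 and 17.5 CPM in brain. Both were higher in the brains of mice 4 and 5 than in the other 3. Of the 9 tested genes 3 were higher and 1, Aqp1, was lower, against 20.4% and 18.4% over all genes tested. The higher ones numbered 1 without mouse 4 and 2 without mouse 5. Photoreceptor and pineal genes were near absent, with 7 of 11 removed by the filter, Nrl higher, at 1.20 ± 0.478 CPM, and Gnat1 lower, and none of the 6 pituitary hormone genes passed the filter.

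No microglia gene was higher in brain and 6 of 15 were lower, with median log2 ratios of -1.28 to liver and -0.37 to skin. Many of these genes are also used by the macrophages of other tissues. Csf1r, the receptor these cells need to survive, had 16, 31.1, 22.3, 22.3 and 15.4 CPM in brain, 242 ± 32.7 in liver and 97.8 ± 14.2 in skin. C1qa, C1qb, C1qc, Aif1 and Tmem119 were the other 5, and Tmem119 lost its call under library totals. Genes more particular to microglia were not called: Siglech had 2.38 ± 0.714 CPM in brain, 1.39 ± 0.714 in liver and 0.323 ± 0.207 in skin, and Gpr34 had 4.55 ± 1.65, 0.174 ± 0.156 and 2.32 ± 0.689. Both were called higher under library totals, Gpr34 also with the size factors of DESeq2, by the DESeq2 test and without mouse 5, and Siglech without mouse 4. Of 11 endothelial genes 3 were higher and 4 lower, with median log2 ratios of -0.69 to liver and -0.21 to skin. Over all genes tested the shares were 20.4% higher and 18.4% lower. Cldn5, Slc2a1, Abcb1a and Slc7a5 of this list were not called. Pecam1, Cdh5, Kdr and Tek, of vessels in general, were lower in brain, whereas Slco1c1, a thyroid hormone transporter of brain vessels, was higher (40.2 ± 2.54 CPM against at most 0.214 on average elsewhere), as were Mfsd2a, the lipid transporter of the blood-brain barrier (31.8 ± 5.41 against 10.2 ± 3.29 in skin), and Spock2. The calls for Kdr and Tek were lost under library totals.

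**Figure D5:**
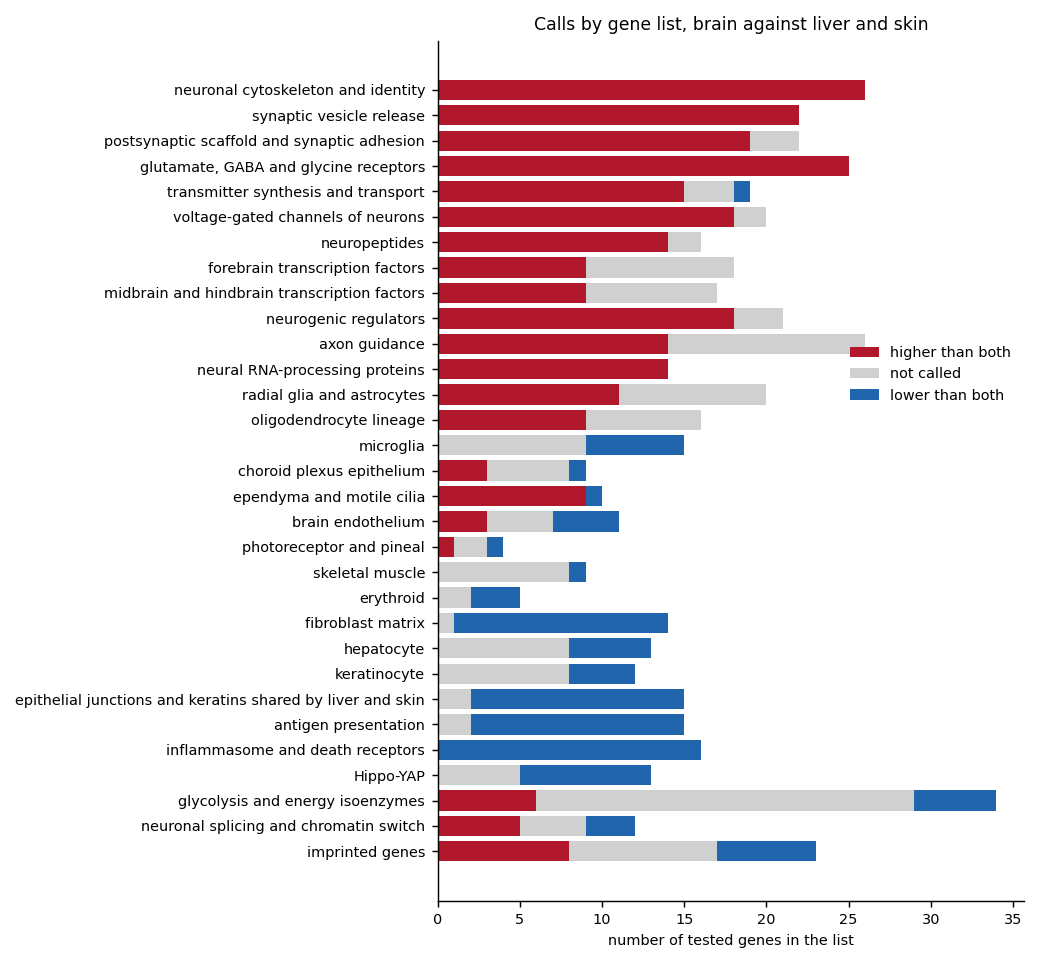
Number of tested genes called higher than both tissues (red), not called (grey) and lower than both (blue) in each of 31 gene lists. The neuronal lists at the top are mostly red, with 26 of 26 and 22 of 22 in the first 2, and the lists of inflammasome and death receptors, antigen presentation and epithelial junctions are mostly blue.

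The 15 leading genes lower in brain were Pck1, Stfa3, BC100530, Ces2g, Steap4, Hal, Rab44, Gm6484, Stfa1, Esrp2, Akr1c18, Itih4, Hp, Adh1 and Tgm1. The ranking takes only genes present in both liver and skin, and which cells of those tissues held them was not tested. Most of the 15 encode enzymes or secreted proteins. Hp, which encodes the haemoglobin scavenger haptoglobin, had 0.146, 0.296, 0.128, 0.145 and 0.543 CPM in brain, 4873 ± 452 in liver and 49.3 ± 18.3 in skin. Adh1, an alcohol dehydrogenase that also oxidises retinol, had 0.433 ± 0.333 CPM in brain, 1013 ± 85.3 in liver and 79.7 ± 15.2 in skin. Hal, the first enzyme of histidine breakdown in liver and epidermis, had 21 counts over the 5 brains and 63.9 ± 14 CPM in liver, and in skin it ranged from 6.04 to 119 CPM. Pck1, the control enzyme of glucose synthesis, at chr2:172978549-172984774 in mm9, had 11 counts over the 5 brains. It differed widely between mice in liver, with 1225, 1895, 257, 4726 and 306 CPM, and in skin, with 106, 82.4, 302, 13.5 and 46.5 CPM. Esrp2, a splicing factor of epithelia, had 5 counts over the 5 brains, 62.3 ± 9.44 CPM in liver and 22 ± 7.25 in skin. Stfa1, Stfa3 and BC100530 are near copies of one another, so reads could be split between them, and their separate values are uncertain.

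Genes of innate immunity and cell death were low in brain throughout the list. All 16 genes for inflammasomes, death receptors and their signalling were lower, with a median log2 ratio of -4.09 to liver and -3.46 to skin. Ripk3, a kinase of necroptosis, had 0.512, 0.727, 0.897, 0.554 and 0.448 CPM in brain, 17.1 ± 2.34 in liver and 26.3 ± 3.69 in skin. Mlkl, which executes it, had 0.148 ± 0.136, 11.9 ± 1.72 and 5.32 ± 1.04. Casp8, a caspase that acts below the death receptors, had 3.36, 4.63, 3.59, 2.41 and 2.08 CPM in brain, 46.6 ± 5.01 in liver and 31.9 ± 3.72 in skin. The tissues did not overlap for any of the 16, and over all genes tested every brain lay below the other tissues for 20.7%. Casp1, Tlr4 and Il1r1 were lower too, with means under 2 CPM in brain.

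Antigen presentation was lower for 13 of 15 genes, with median log2 ratios of -3.83 and -2.78. H2-K1, a class I heavy chain, had 7.09, 11.3, 7.71, 8.99 and 14.4 CPM in brain, 300.2 ± 18.8 in liver and 110 ± 30.7 in skin, and B2m, its light chain, had 66.9 ± 13.2, 855 ± 53.0 and 304 ± 62.1. For H2-K1 the log2 difference was -4.94 ± 0.24 from liver (edgeR adjusted p = 3.16e-09) and -3.46 ± 0.23 from skin (adjusted p = 6.69e-08). The class II gene H2-Aa was at 0.133 ± 0.0771 CPM in brain and 15.7 on average in both other tissues. Reads from class I genes can be split among near copies, so the level of H2-K1 is uncertain. Psmb10, a subunit of the immunoproteasome, was not called, at 40.2 ± 14.8 CPM in brain, 42.5 ± 2.58 in liver and 23.3 ± 5.11 in skin.

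Epithelial genes were lower for 13 of 15, among them Cdh1, Epcam, Krt8, Cldn1 and Dsp, with median log2 ratios of -5.29 and -5.25. Dsp, which anchors filaments at desmosomes, had 0.485 ± 0.291 CPM in brain, 71.3 ± 8.90 in liver and 248 ± 162 in skin. Jup and Tjp3 were not called, and Jup had 55.0 ± 8.66 CPM in brain and 52.0 ± 8.27 in liver. Of the Hippo-YAP genes, 8 of 13 were lower, with median log2 ratios of -1.70 to liver and -2.83 to skin. Yap1, the growth co-activator, had 19.3, 23.7, 21.1, 17.3 and 21.7 CPM in brain, 67.5 ± 3.59 in liver and 185 ± 17.1 in skin, and its target Cyr61 had 8.80 ± 3.20, 47.1 ± 22.4 and 226 ± 148. When the libraries were scaled to their totals alone, Yap1 was no longer called and 5 of the 13 were lower. Wwtr1, Tead1, Tead2, Amotl2 and Lats1 were not called. Fibroblast matrix genes were lower for 13 of 14, with median log2 ratios of -2.35 to liver and -6.77 to skin. Their sum was 200, 1094, 408, 260 and 379 CPM in the brains, highest in mouse 2, and it was at least 8263 in every liver and 65091 in every skin library.

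Of 34 genes of glycolysis and energy isoenzymes, 6 were higher and 5 lower, with median log2 ratios of -0.29 to liver and -0.17 to skin. These shares were close to those over all genes tested, 20.4% higher and 18.4% lower. The 34 include genes with too low a level to be read, named below. Eno2, the enolase of neurons, had 222, 212, 244, 209 and 170 CPM in brain, 0.872 ± 0.279 in liver and 25.2 ± 3.44 in skin. Ckb, the brain creatine kinase, was 19.5-fold above liver and 9.86-fold above skin (456 ± 174 CPM in brain). Aldoc, Pfkp, Ldhb and Ckmt1 were the other higher ones, by 1.94-fold to 3.80-fold over the nearer tissue, and Ckmt1 was no longer called without mouse 3 or without mouse 5. Ldha, the lactate dehydrogenase of muscle type, was lower at 265 ± 69.6 CPM in brain against 1430 ± 54.9 in liver and 580 ± 84.4 in skin, so that the pair Ldha and Ldhb ran in opposite directions. Hk2, Slc2a4, Pygl and Fbp1 were lower too. Hk1, the hexokinase of brain, was not called, with 269 ± 45 CPM in brain and 298 ± 27.0 in liver. Gapdh, Pgk1, Pgam1 and Eno1, which every cell uses, were at most 6.56 CPM on average in any tissue, so they could not be read. These genes have many processed copies in the genome, and reads matching more than 1 place were tallied apart by the counting program.

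Imprinted genes, expressed from only the maternal or only the paternal copy, went both ways. Of 23 genes 8 were higher and 6 lower, against 20.4% and 18.4% over all genes tested. The median log2 ratios were 1.16 to liver and 0.31 to skin. Nnat, a small membrane protein of developing neurons, had 3329, 3788, 2513, 3504 and 4839 CPM in brain, 10.1 ± 5.17 in liver and 14.3 ± 7.06 in skin. Ndn, Magel2 and Snrpn, 3 genes of the Prader-Willi region, were higher, with Ndn at 1138 ± 226 CPM in brain and 212 ± 40.5 in skin. Nap1l5, Usp29, Peg13 and Impact were higher as well. The growth genes of the fetus were lower. Igf2 had 111, 723, 226, 158 and 261 CPM in brain, 9935 ± 1751 in liver and 4260 ± 670 in skin, and H19, from the same locus, had 58.9, 461, 158, 74.0 and 177 CPM in brain and 25382 ± 2359 in liver. Both were highest in the brain of mouse 2, which also had the highest sum of fibroblast matrix genes, 1094 CPM, and the part of those cells in Igf2 and H19 was not tested. Dlk1, Grb10, Plagl1 and Mest were the other lower genes, and Plagl1 lost its call under library totals. Meg3, a noncoding RNA from the locus of Dlk1, was 1566 ± 603 CPM in brain and 789 ± 204 in skin and was not called. It was called higher without mouse 1, 2 or 5, without the brain of mouse 5 and without those of mice 2 and 3. The same held for Meg3 under library totals, with the size factors of DESeq2 and by the DESeq2 test. Peg10 was called higher without mouse 5, without the brain of mouse 5 alone and without the brains of mice 2 and 3.

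Markers of blood, liver, muscle and skin were followed in every brain library. Beside the counts of lower genes given here, 18.4% of all genes tested were lower in brain than in both other tissues. The globin genes were listed at or near 0 in every tissue, including liver, where Slc4a1, a membrane protein of red cells, had 2753 ± 349 CPM, so they were not used. The erythroid list summed to 4.95 to 15 CPM in brain, 4130 to 5621 in liver and 13.7 to 28.4 in skin. Of its 5 tested genes 3 were lower (median log2 ratios -9.87 to liver and -0.92 to skin), which became 1 without mouse 3 and 2 without the brain of mouse 5. Of 13 hepatocyte genes 5 were lower, and 3 without mouse 4, with median log2 ratios of -13.49 to liver and -1.30 to skin. The list, which includes Ttr, summed to 31.9, 32.4, 296, 987 and 2052 CPM in the brains of mice 1 to 5, 14.4 to 42.8 in skin and 262106 or more in every liver. Ttr made up most of the sum in the brains of mice 3, 4 and 5. Alb, the albumin gene, had 2.05 ± 2.19 CPM in brain and 10.1 ± 9.87 in skin against 146502 ± 13085 in liver. The call for Alb was lost without mouse 3, 4 or 5. Of 9 skeletal muscle genes 1, Mylpf, was lower, and the call was lost under library totals. These genes summed to 13.4 to 59.4 CPM in brain, highest in mouse 3, against 5174 or more in every skin library. Keratinocyte genes summed to 61.5 to 110 CPM in brain and 57.3 to 78.6 in liver, and 4 of 12 were lower (median log2 ratios 0.14 to liver and -7.30 to skin). Only 1 of them was lower under library totals, and 1 when brain was fitted with 1 other tissue at a time, with Krt14, Ivl and Trp63 losing their calls in both. Krt1 had 24.6 ± 3.63 CPM in brain and 0.0234 ± 0.0356 in liver. The part of these cells in other results was not tested.

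Jak1, the gene altered in the KI mice of the series, was not called. It had 129, 148, 152, 130 and 91.6 CPM in brain, 232 ± 14.5 in liver and 160 ± 11.2 in skin, with log2 differences of -0.85 ± 0.11 (edgeR adjusted p = 1.33e-05) and -0.31 ± 0.11 (adjusted p = 0.0194), below the 2-fold minimum in both. The order of the tissues could be looked at in mice that no call had used. In the 2 KI mice, both brains lay above the 4 liver and skin libraries for 3457 of the 3476 genes called higher (99.5%) and below them for 2791 of the 3146 called lower (88.7%). Over all tested genes the shares were 41.7% and 23.4%. These values were scaled by library totals, and the KI mice differ from the WT mice by genotype.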

How the data were processed

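Total RNA of brain, liver and skin from P0 mice was used, and poly-A libraries that do not mark strand were sequenced on a NovaSeq. The authors aligned the reads with TopHat2 to mm9 and deposited raw counts per gene from HTSeq, 1 table per library. The gene annotation and the rule for overlapping genes are not given in the sources used here. The 5 summary rows that name no gene were dropped, and 80.5% to 87.2% of uniquely placed reads fell on genes.

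The 15 WT libraries were fitted together in edgeR 4.0.16 (R 4.3.3) by the quasi-likelihood test, with TMM scaling, tissue as the factor and the mouse number as a block. Genes passed filterByExpr with tissue as group, and p-values were adjusted by Benjamini-Hochberg over the 17071 genes tested in each contrast. A gene was called where the adjusted p was under 0.05 and the change at least 2-fold, in the same direction, against both tissues. Levels are means ± SD of normalised CPM over 5 libraries. Intervals between replicates cover these 5 mice only, and whether the libraries come from 1 litter is not stated. The deviations of same-numbered libraries from their tissue means correlated at 0.002 to 0.188 over 15 pairs, 4 of them over 0.1, and in 11 of the 15 the correlation was above the highest with another number, a hint from the data. The pairing was taken from the labels' numbers.

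Named genes were the 15 with the largest smaller ratio in each direction and, in each of 33 lists, up to 4 members of largest and up to 3 of smallest ratio, with those called the opposite way and every member of the splicing and chromatin switch, energy isoenzyme and imprinted lists and Jak1. Further genes were named after their values were seen: the regional genes of the brain and those of its transmitters, receptors, glia and choroid plexus given per library, the genes with RE1 matches, Xist, Eif2s3y, and some list members such as H2-K1, B2m, Casp8, Ripk3, Yap1, Csf1r, Cdh1 and Epcam. The RE1 motif was likewise chosen with results known. The comparison and the lists were chosen with earlier results of these data known. Gene positions and spans came from GENCODE vM1 on mm9, and promoter windows from RefSeq on GRCm38.p6. On simulated counts for 17071 genes with 200 changed in brain, the fit recovered 26% of 2-fold, 90% of 4-fold, 100% of 8-fold and 98% of 16-fold changes. The simulated libraries had no other difference between tissues and none between mice. These shares therefore do not give the recovery in the real comparison. Alternatives were no block, other scalings, no filter, DESeq2 1.42.0, fewer libraries and other thresholds. Some genes that meet the rule for named genes are not reported here.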

Additional observations from a re-analysis of the deposited data

Results flagged for a closer look

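Among 173 groups of 5 libraries examined, the values of the genes given per library above and the mean log2(CPM + 1) of each list in each tissue, 16 held 1 library whose gap to the nearest other exceeded Dixon's 95% value of 0.71 of the group's range. Chance flags about 1 in 20 groups that are independent and chosen in advance. Some of these genes were named after their values were seen, and the groups share libraries. The 16 can therefore not be set against that rate.

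Of these, 9 were the brain of mouse 5. It was the highest for Stmn3 (1762 CPM, others 865 to 1078), for Tbr1 (60.8 CPM, others 0.538 to 12.1) and for the photoreceptor and pineal list (1.47, others 0.54 to 0.78). It was the lowest for Grin2b (3.71 CPM, others 13.2 to 15.7), synaptic vesicle release (7.13, others 7.75 to 7.87), postsynaptic scaffold and adhesion (5.71, others 6.43 to 6.58), receptors of glutamate, GABA and glycine (5.55, others 6.21 to 6.27), voltage-gated channels (4.83, others 5.74 to 5.97) and the splicing and chromatin switch (4.67, others 5.04 to 5.17). Its level also moved with transcript length, and the part of that in these lists was not tested.

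The brain of mouse 2 was the highest for Igf2 (723 CPM, others 111 to 261) and for the microglia list (3.59, others 3.25 to 3.34), and the brain of mouse 3 for skeletal muscle genes (2.66, others 1.03 to 1.34). Outside the brain, the liver of mouse 4 was the highest for Ptbp2 (26.5 CPM, others 21.4 to 22.6) and the skin of mouse 4 for Yap1 (215 CPM, others 172 to 182). The liver of mouse 5 was the highest for Casp8 (55.2 CPM, others 42.6 to 45.9) and the skin of mouse 5 for Penk (445 CPM, others 266 to 309).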

How the results depend on the processing

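The fit without the replicate block called 3511 genes higher and 3183 lower, against 3476 and 3146 with the mouse number as a block, and Vip, Krt19 and Ckmt1 were the 3 of 225 named genes that lost their call. Leaving out each mouse in turn gave 3412 to 3566 higher and 3024 to 3141 lower than both tissues, 5347 to 5461 higher and 4841 to 4958 lower than liver, and 4139 to 4326 higher and 4580 to 4763 lower than skin. A 4-fold minimum in place of 2-fold gave 2216 higher and 1843 lower than both, and 2631 higher and 3130 lower than skin. No gene called either way was called in the opposite direction under any setting. DESeq2 called 3670 higher and 3026 lower. Fits with 1 other tissue at a time called 3461 and 2696, and scaling by library totals called 4054 and 2491, with the median change against liver moving to 0.84 on the log2 scale. Of 3590 values for named genes under the alternatives, 99 fell short of a call that the gene had, over 43 genes, and none reversed. Of 1056 list counts, 36 moved by over 1.5 times. The 2 fits that drop single brain libraries were added after the data were seen. Depth limits the genes near 3 counts per library, where only bounds are given.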
